A study of Mus musculus with 8 samples.

Results

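The imprinted genes of the mouse were examined in RNA from the prefrontal cortex (PFC) of mice that overexpressed *Rnf146* or eGFP. The list held 42 gene symbols, chosen by their known imprinting while the pair differences of these libraries were already known, and 36 of them were among the 15039 genes with values. The other 6, *Rtl1*, *Asb4*, *Calcr*, *H19*, *Phlda2* and *Airn*, were not analysed here. Because the list was drawn up with this contrast in view, every difference between the groups is given as a description of these libraries and not as independent support for a change of imprinted genes.

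An imprinted gene is transcribed mainly or only from the copy inherited from one parent. The choice is laid down in the germ line as DNA methylation at imprinting control regions, and it is kept after fertilization, so that neighbouring genes of a cluster are often governed together, some from the paternal and some from the maternal copy. Many imprinted genes act in fetal growth and in the brain, where paternally expressed genes such as *Magel2* and *Peg3* are known for roles in hypothalamic function and social or maternal behavior. The mice were of an inbred strain and the table holds 1 value per gene and library, so that the parental copy behind a value could not be read, and the words paternal and maternal refer to textbook knowledge of each gene.

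The data were 8 libraries from wild-type C57BL/6NCrljOri male mice, 4 of each group. An adeno-associated virus (AAV2/1) was injected bilaterally into the PFC at 6 weeks of age and the tissue was taken 4 weeks later. According to the paper, the mice sequenced for Rnf146 overexpression had been checked for that overexpression and for social deficits. In the Rnf146 group the virus carried mouse *Rnf146*, a ubiquitin ligase, with eGFP, and in the control group eGFP alone, both under the human synapsin (hsyn) promoter, which restricts expression largely to neurons. Tissue from the whole dissected PFC was sequenced, so uninfected cells and glia were measured with the infected neurons, and fewer cells of a type could not be told apart from less RNA per cell. The values are on a log2 scale and run from 7.86 to 18.8. For every gene the eGFP and Rnf146 values of the same replicate number add up to the same sum in all 4 pairs (largest spread 1.4e-13). A gene therefore carries 4 independent measurements, the differences of the 4 pairs, and the groups do not overlap when all 4 differences have the same sign. The number of reads per library is unknown. The lowest mean value of a gene was 8.20, and a log2-type scale with such a floor can compress the changes of weakly expressed genes. *Rnf146* itself lay between 10.35 and 10.50 in the eGFP libraries and between 13.01 and 13.17 in the Rnf146 libraries.

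The starts of 4 genes are shown because they frame the contrasts described below: *Dlk1* and *Meg3*, which share a cluster and an imprinting control region but differed in their values, *Peg3*, whose start region is shared with its neighbour *Usp29*, and *Plagl1*, which had the smallest spread among the genes called. The sequences are those of RefSeq on GRCm38.p6, 250 bases before to 50 bases after the first listed start, 5′ to 3′ on the strand of the gene, with each CG dinucleotide, the site of DNA methylation, in capitals. They lie at chr12:109452573-109452872 (plus strand), chr12:109540746-109541045 (plus strand), chr7:6730370-6730669 (minus strand) and chr10:13090582-13090881 (plus strand).
Dlk1: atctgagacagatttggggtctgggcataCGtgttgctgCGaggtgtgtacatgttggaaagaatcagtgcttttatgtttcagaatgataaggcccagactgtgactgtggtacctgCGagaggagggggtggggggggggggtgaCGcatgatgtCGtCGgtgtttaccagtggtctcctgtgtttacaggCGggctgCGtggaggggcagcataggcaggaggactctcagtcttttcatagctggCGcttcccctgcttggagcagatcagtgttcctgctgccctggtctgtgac
Meg3: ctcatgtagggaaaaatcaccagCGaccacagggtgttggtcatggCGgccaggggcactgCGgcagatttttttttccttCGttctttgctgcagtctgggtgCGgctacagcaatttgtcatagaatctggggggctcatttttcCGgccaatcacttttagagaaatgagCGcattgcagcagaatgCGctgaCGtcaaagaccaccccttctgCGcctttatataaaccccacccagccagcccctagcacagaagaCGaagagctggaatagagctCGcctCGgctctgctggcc
Peg3: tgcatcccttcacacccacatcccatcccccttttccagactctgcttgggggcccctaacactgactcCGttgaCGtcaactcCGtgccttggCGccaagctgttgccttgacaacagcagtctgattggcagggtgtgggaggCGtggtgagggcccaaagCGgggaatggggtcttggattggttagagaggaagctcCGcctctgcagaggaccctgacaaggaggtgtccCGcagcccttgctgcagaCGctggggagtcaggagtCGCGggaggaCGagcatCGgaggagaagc
Plagl1: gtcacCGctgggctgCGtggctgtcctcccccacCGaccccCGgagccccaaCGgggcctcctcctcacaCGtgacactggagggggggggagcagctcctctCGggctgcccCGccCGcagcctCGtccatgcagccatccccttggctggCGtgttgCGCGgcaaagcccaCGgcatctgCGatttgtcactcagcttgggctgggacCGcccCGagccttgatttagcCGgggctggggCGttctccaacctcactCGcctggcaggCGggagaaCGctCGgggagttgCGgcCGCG

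Of the 36 imprinted genes, 30 matched a promoter sequence of RefSeq. The 6 without one were *Peg10*, *Sgce*, *Impact*, *Cdkn1c*, *Trappc9* and *Peg13*. The CG count per window of 300 bases ran from 0 in *Rian* to 48 in *Ppp1r9a*, with a median of 15, against a median of 7 over the windows of 27025 genes. *Dlk1* held 9 CG dinucleotides, *Meg3* 13, *Peg3* 13 and *Plagl1* 26. At least as many were found in 46.2%, 38.5%, 38.5% and 16.8% of all windows. The window of *Usp29* on the opposite strand shares 263 bases with that of *Peg3*. A TCF/LEF motif, searched as CTTTGAT or CTTTGTT on both strands, was in the window of 0 of the 30 genes and in 9.28% of all windows. A YY1 motif, searched as GCCATNTT on both strands, was likewise in 0 of the 30 and in 6.23% of all windows. A match of GCCATNTT can end in the CTT with which CTTTGAT or CTTTGTT begins, so the motifs may overlap. These counts describe the letters of these windows only.

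*Peg10* and *Dlk1*, both paternally expressed, had the largest differences of the imprinted genes. By size of increase, *Peg10* stood at rank 2 and *Dlk1* at rank 4 of the 15039 genes, with *Rnf146* at rank 1. In the fit over all genes (limma, blocked by replicate number, with a gene called where its adjusted p did not exceed 0.1), 7 of the 36 imprinted genes were higher in Rnf146-overexpressing mice and 0 were lower. Over all genes 1.25% were called, 0.818% higher and 0.432% lower. The 7 were *Peg10*, *Dlk1*, *Magel2*, *Peg3*, *Inpp5f*, *Grb10* and *Plagl1*. Since the list was compiled with this contrast known, nothing is read from the comparison of the shares.

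*Peg10* encodes a capsid-like protein derived from a retrotransposon and is needed for the placenta. Its values in the eGFP libraries were 10.18, 10.07, 10.35 and 10.12 for replicates 1 to 4, and in the Rnf146 libraries 11.19, 11.30, 11.01 and 11.25. Every Rnf146 library was above every eGFP library. The differences within pairs were 1.01, 1.23, 0.65 and 1.13, which averages to 1.01 ± 0.25 (SD over the 4 pairs; limma, adjusted p = 0.0050). All errors given below are likewise the SD over the 4 pairs, and each adjusted p is that of the limma fit.

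*Dlk1* encodes a transmembrane protein of the Delta-like family that holds back differentiation. The eGFP libraries had values of 9.01, 8.95, 9.32 and 9.10, and the Rnf146 libraries 10.08, 10.13, 9.76 and 9.99. The groups did not overlap, and pair 3 had the smallest difference. The pair differences of 1.08, 1.18, 0.44 and 0.89 averaged 0.90 ± 0.33 (limma, adjusted p = 0.016). *Dlk1* lay near percentile 40.9 of all genes by mean value.

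*Magel2* encodes a regulator of ubiquitination and protein sorting and lies in the region that is lost in Prader-Willi syndrome. The eGFP values were 8.73, 8.81, 9.05 and 8.81 and the Rnf146 values 9.49, 9.41, 9.17 and 9.41. The groups did not overlap, and the libraries of pair 3 lay closest to each other. The pair differences of 0.77, 0.60, 0.12 and 0.59 averaged 0.52 ± 0.28 (limma, adjusted p = 0.064).

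*Peg3*, a zinc finger protein, was among the most highly valued genes of the table and had a smaller difference. Its values were 13.47, 13.45, 13.55 and 13.46 in the eGFP libraries and 13.79, 13.80, 13.71 and 13.79 in the Rnf146 libraries, without overlap. The difference averaged 0.29 ± 0.09 (limma, adjusted p = 0.056). *Plagl1*, a zinc finger transcription factor of growth control, had nearly the same difference in each pair, 0.25, 0.24, 0.25 and 0.28. The average was 0.25 ± 0.02 (limma, adjusted p = 0.057). The values ran from 10.00 to 10.02 in the eGFP libraries and from 10.26 to 10.28 in the Rnf146 libraries.

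*Inpp5f* and *Grb10* are genes whose imprinting depends on the transcript or the tissue. *Inpp5f*, a phosphoinositide phosphatase with a paternally expressed transcript in brain, had values of 11.15, 11.21, 11.19 and 11.18 in the eGFP libraries and 11.50, 11.44, 11.46 and 11.47 in the Rnf146 libraries. Its pair differences of 0.35, 0.23, 0.27 and 0.29 averaged 0.29 ± 0.05 (limma, adjusted p = 0.038). *Grb10*, an adaptor that dampens insulin and growth factor signaling, is expressed from the maternal copy in most tissues and from the paternal copy in neurons. It lay at 10.83, 10.86, 10.98 and 10.90 in the eGFP libraries and at 11.23, 11.19, 11.08 and 11.16 in the Rnf146 libraries, and its pair differences of 0.40, 0.33, 0.11 and 0.26 averaged 0.28 ± 0.13 (limma, adjusted p = 0.092). In both genes the groups did not overlap. The table sums transcripts to genes, so that the imprinted transcript of *Inpp5f* was not separated from the others.

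**Figure D1:**
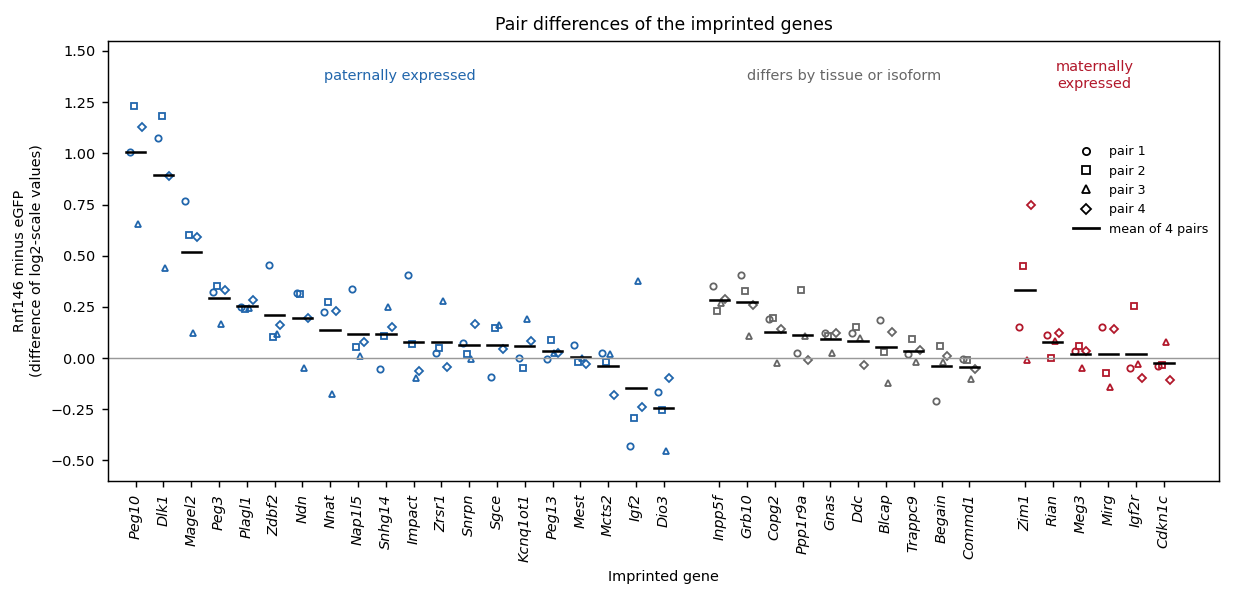
Pair differences (Rnf146 minus eGFP, log2-scale values) of the 36 imprinted genes, grouped by the parental copy that is known to be expressed, with 1 symbol per pair and a bar at the mean of 4 pairs. *Peg10* and *Dlk1* lie highest, at means of 1.01 and 0.90, and *Dio3* lowest at -0.24.

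The calls depended on single pairs. Without pair 1, 6 imprinted genes were called, without pair 2 *Dlk1* and *Peg10* alone, and without pair 4 only *Peg10*, with an adjusted p of 0.087 in limma. Without pair 3 there were 7, with *Igf2*, then called lower, in place of *Plagl1*. The calls over all genes moved as well. They numbered 188 with all pairs, and 421, 42, 169 and 14 without pair 1, 2, 3 and 4. The fall without pair 2 or pair 4 was thus not particular to the imprinted genes. With each pair left out in turn, a mean of the 4 differences cannot move by as much as 1 SD. *Peg10* stayed between 0.93 and 1.12, *Dlk1* between 0.80 and 1.05, *Magel2* between 0.44 and 0.65, and *Plagl1* between 0.24 and 0.26. Without the block, which counts the centred values as 8 independent libraries, 16 of the 36 were called, against 21.5% of all genes.

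Paternally and maternally expressed genes were then set side by side. Of the 20 paternally expressed genes with values, 17 had a mean difference above 0, 7 were higher in all 4 pairs and 1 was lower in all 4 pairs. Of the 6 maternally expressed genes, 5 had a mean above 0, and 0 kept 1 sign in all 4 pairs. Of the 10 genes whose imprinting differs by tissue or transcript, 8 had a mean above 0, with 3 higher and 1 lower in all 4 pairs. Together 10 of the 36 genes were higher in all 4 pairs and 2 were lower, against 10.4% and 10.2% of all genes. Quantile normalization turned the sign of *Meg3* and *Mest*, and 16 paternally and 4 maternally expressed genes then had a mean above 0.

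The median of the mean differences was 0.10 in the paternally expressed genes, 0.02 in the maternally expressed genes and 0.00 over all genes. By pair, the paternal median was 0.15, 0.10, 0.12 and 0.12, and the maternal median 0.07, 0.03, -0.02 and 0.08. The paternal median was the higher one in each pair. The gap between the medians averaged 0.08 ± 0.04 (SD, n = 4 pairs). It was 0.09 ± 0.05 when genes of differing imprinting were placed in a class for brain, with 22 paternally and 11 maternally expressed genes. The genes that already had a parental class, *Igf2* and *Igf2r* among them, kept it. *Inpp5f* and *Grb10* were the genes that this moved to the paternal class, which then held all 7 called genes. As the classes were chosen with results known, nothing is read from that. The maternal median rests on few genes and was 0.06 without pair 3 and 0.04 without pair 4, and no test was made of a score over members that were chosen with results known.

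The Dlk1-Dio3 cluster on chromosome 12 holds genes of both classes. *Meg3*, a long noncoding RNA made from the maternal copy, had a mean value of 17.45, and its pair differences of 0.04, 0.06, -0.05 and 0.03 averaged 0.02 ± 0.05. The maternally expressed *Rian* and *Mirg*, hosts of small nucleolar RNAs and microRNAs, averaged 0.08 ± 0.06 and 0.02 ± 0.15. *Dlk1* was larger than these 3 in each pair. *Dio3*, at the far end of the cluster, encodes the deiodinase that inactivates thyroid hormone and is also expressed mainly from the paternal copy. Its differences of -0.17, -0.26, -0.45 and -0.10 averaged -0.24 ± 0.15 (limma, adjusted p = 0.156), so it was not called, although its groups did not overlap. *Begain*, upstream of *Dlk1*, averaged -0.04 ± 0.12.

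*Peg10* (GRCm39 chromosome 6, 4747306 to 4760517, plus strand) and *Sgce* (4672057 to 4747207, minus strand) are both paternally expressed and start 98 bases apart on opposite strands. *Sgce* encodes epsilon-sarcoglycan, the gene of a myoclonus-dystonia. Its pair differences of -0.09, 0.15, 0.16 and 0.04 averaged 0.06 ± 0.12, against the 1.01 ± 0.25 of *Peg10*, and in each pair the difference of *Peg10* was the larger one. *Ppp1r9a*, the neurabin gene in the same cluster, averaged 0.11 ± 0.15.

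*Peg3* (GRCm39 chromosome 7, 6706882 to 6733468, minus strand) lies 108 bases from *Usp29*, a deubiquitinase gene read in the opposite direction and not on the list of 42. *Usp29* had differences of 0.48, 0.55, 0.27 and 0.59 with an average of 0.47 ± 0.15 (limma, adjusted p = 0.018). Both genes were higher in all 4 pairs and both had their smallest difference in pair 3. *Zim1*, the maternally expressed zinc finger gene next to *Peg3*, ran from -0.01 in pair 3 to 0.75 in pair 4, with an average of 0.33 ± 0.33, about the size of its spread.

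In the Snrpn cluster on chromosome 7 the differences were uneven as well. *Ndn*, which encodes the neuronal growth suppressor necdin, lies 26747 bases from *Magel2* and averaged 0.19 ± 0.17, with differences of 0.32, 0.31, -0.05 and 0.20. *Snrpn*, a spliceosome component, averaged 0.06 ± 0.07. *Snhg14*, the long host transcript that runs antisense through *Ube3a*, averaged 0.12 ± 0.13. *Ube3a*, the ubiquitin ligase of Angelman syndrome, is silenced on the paternal copy in neurons by that transcript, and averaged 0.06. The 2 genes overlap on opposite strands over 4161 bases.

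**Figure D2:**
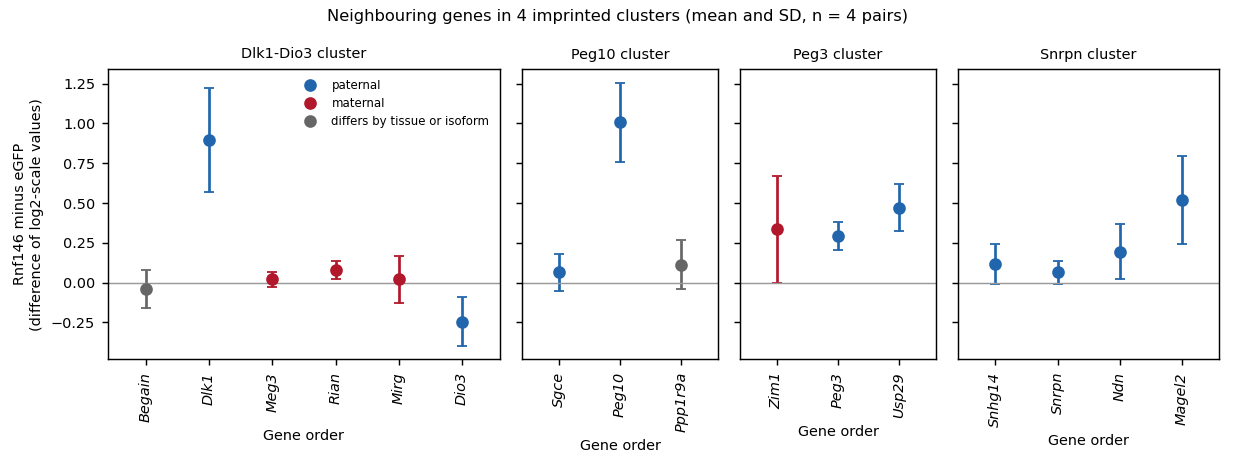
Mean pair difference (Rnf146 minus eGFP, log2-scale values) with its SD over 4 pairs for neighbouring genes in 4 imprinted clusters, placed in gene order and not to distance, with colour giving the parental copy known to be expressed. *Dlk1* (0.90) stands above *Meg3* (0.02) in its cluster and *Peg10* (1.01) above *Sgce* (0.06).

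For the growth genes of the Igf2, Igf2r and Kcnq1 regions the mean difference was smaller than the spread of the pairs. *Igf2*, the fetal growth factor, differed by -0.43, -0.29, 0.38 and -0.24 in the 4 pairs, which averages to -0.15 ± 0.36. Without pair 3 it averaged -0.32 (limma, adjusted p = 0.095). In brain it is known to come mainly from the meninges and the choroid plexus, and the mean of the 8 leptomeningeal marker genes was -0.09, -0.09, 0.08 and -0.12 in the same pairs. In pair 3 only 4 of the 8 markers were above 0, with a median of 0.03, and *Ogn* had by far the highest difference, 0.63. None of the 8 was called. The choroid plexus marker *Clic6*, the 1 of 5 with values, was higher in all 4 pairs, by 0.52, 0.50, 0.53 and 0.61, and was called (limma, adjusted p = 0.0044). The part of either tissue in the values of *Igf2* was not tested. *Igf2r*, the receptor that clears IGF2, averaged 0.02 ± 0.16, and the cell cycle inhibitor *Cdkn1c* -0.02 ± 0.08. *Kcnq1ot1*, the noncoding RNA that silences the Kcnq1 region, averaged 0.06 ± 0.11.

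Several imprinted genes lie inside or across another gene. Reads can be split wrongly above all where both genes share a strand, as with *Peg13* and *Trappc9* or *Mcts2* and *H13*. *Snrpn* overlaps *Snurf* (9601 bases, average 0.05) and *Gm38393* (24386 bases, average 0.19) on its own strand. *Commd1* overlaps *Commd1b* (85955 bases, average 0.13) in the same way. *Snhg14* overlaps *Gm38393*, *A230103L15Rik* (average -0.02) and *Gm44831* (average 0.01) on its own strand. The other overlaps named here are on opposite strands, which stranded libraries help to separate. The small genes *Nnat* and *Blcap* overlap on opposite strands and averaged 0.14 ± 0.21 and 0.05 ± 0.14. *Mest* and *Copg2*, a hydrolase-like protein and a coatomer subunit, averaged 0.00 ± 0.04 and 0.13 ± 0.10. *Peg13*, a noncoding RNA within the trafficking gene *Trappc9*, and its host both averaged 0.03. *Nap1l5*, of the nucleosome assembly family, averaged 0.12 ± 0.15, its host *Herc3* -0.12. *Mcts2*, with a mean of -0.04 ± 0.10, lies within *H13*, which averaged -0.06. *Inpp5f* overlaps *Mcmbp* on the opposite strand over 2122 bases, and that gene averaged 0.03. *Gm7367*, on the opposite strand of *Snrpn*, averaged 0.06.

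Among the remaining genes, *Zdbf2*, a zinc finger gene, was higher in all 4 pairs, with 0.46, 0.10, 0.12 and 0.16 and a mean of 0.21 ± 0.17, but was not called. *Gnas*, which encodes the stimulatory G protein alpha subunit, averaged 0.09 ± 0.05 and was also positive in all 4 pairs. *Impact*, an inhibitor of the kinase GCN2, averaged 0.08 ± 0.23. *Ddc*, the decarboxylase of dopamine and serotonin synthesis next to *Grb10*, averaged 0.09 ± 0.08. *Zrsr1*, a splicing factor gene within *Commd1*, averaged 0.08 ± 0.14. *Commd1*, a regulator of copper transport, was lower in all 4 pairs, with an average of -0.04 ± 0.05 that was no larger than its spread.

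When all genes were split by mean value into 4 groups of equal size, 4 of the 36 imprinted genes fell in the lowest group (below 8.99), 5 in the next, 8 in the next and 19 in the highest (above 10.9). The median spread of the 4 pair differences was 0.12 in the imprinted genes and 0.10 over all genes. Of the genes called, *Dlk1* and *Magel2* lay below the median gene, *Plagl1* and *Peg10* above it, and *Peg3*, *Inpp5f* and *Grb10* in the highest group.

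**Figure D3:**
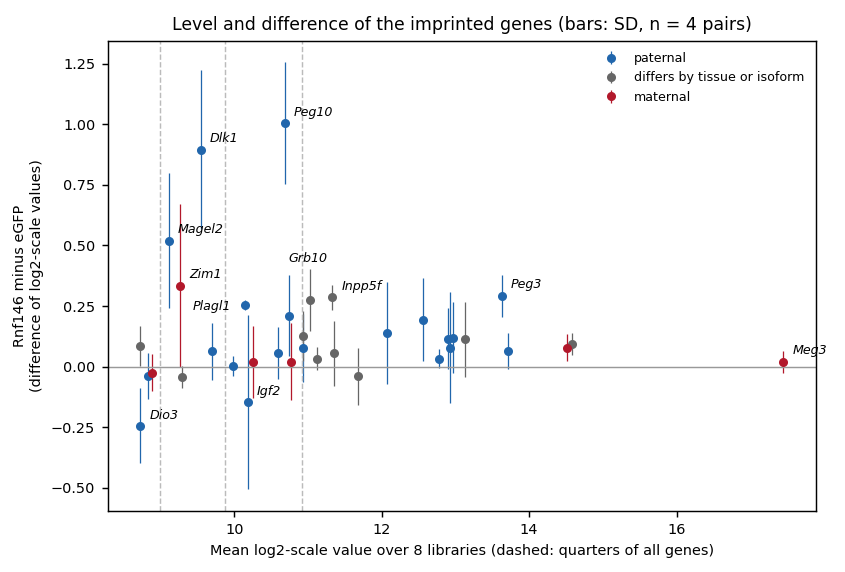
Mean log2-scale value over 8 libraries (horizontal) and mean pair difference with its SD over 4 pairs (vertical) of the 36 imprinted genes, with dashed lines that split all genes into 4 groups of equal size. *Dlk1* and *Peg10* stand apart from the other imprinted genes, and *Meg3*, at 17.45, sits at a difference of 0.02.

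A further list of 43 imprinted genes outside the 42 was examined, of which 33 had values. Their median difference was 0.00, 18 had a mean above 0, 5 were higher and 4 lower in all 4 pairs (10.4% and 10.2% of all genes were), and *Usp29* was the only one called, against 1.25% of all genes. These shares lie near those of all genes. *Osbpl5*, a lipid transfer gene, and *Cobl*, an actin nucleator next to *Grb10*, were lower in all 4 pairs each with an average of -0.23 ± 0.11 (limma, adjusted p = 0.142 and 0.124) and not called. Of 16 genes that set or keep imprints, 14 had values and 0 were called, with a median of -0.01. *Zfp57*, the zinc finger protein that protects methylation at imprinting control regions, differed by -0.09, -0.32, -0.22 and -0.26, on average -0.22 ± 0.10 (limma, adjusted p = 0.138).

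Markers of other cell types and regions were read in the same libraries. The marker lists were chosen with earlier results of these data known, so nothing is read from the shares called. The 6 markers of the septum and basal forebrain with values, of 8, were all called higher, against 0.818% of all genes, and their mean was 0.53, 0.73, 0.33 and 0.61 in the 4 pairs. Like *Peg10*, *Dlk1* and *Peg3*, the mean of the list was highest in pair 2 and lowest in pair 3. Of its markers, *Zic1* and *Trpc4* had that order. *Zic2* and *Zic4* were highest in pair 1, and *Slc5a7* and *Isl1* were lowest in pair 1. The other called imprinted genes had another order. *Magel2*, *Grb10* and *Inpp5f* were highest in pair 1 and *Plagl1* in pair 4. *Magel2* and *Grb10* were lowest in pair 3, and *Inpp5f* and *Plagl1* in pair 2. *Chat* and *Lhx8* of that list were not analysed here. The 10 striatal markers averaged -0.11, 1.32, 0.70 and 0.28, and the 6 oligodendrocyte markers -0.16, 0.52, 0.97 and 0.58, and 0 of either list were called. The means of both lists were below 0 in pair 1, although *Drd1*, *Drd2* and *Tac1* were above 0 there. The 7 called imprinted genes were above 0 in every pair. They were called from these same differences, so nothing is read from that contrast. The part of these cell types in the values of the imprinted genes was not tested. The 8 markers of cortical excitatory neurons, all with values, averaged -0.21, -0.37, -0.08 and -0.21, and 2 of them were called lower, against 0.432% of all genes. The means of the 5 microglial, 5 astrocytic and 5 endothelial markers were -0.19, -0.04 and 0.01, and 0 of them were called. None of the 9 hypothalamic markers had values. The part of the dissected region in the values of the imprinted genes was not tested.

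**Figure D4:**
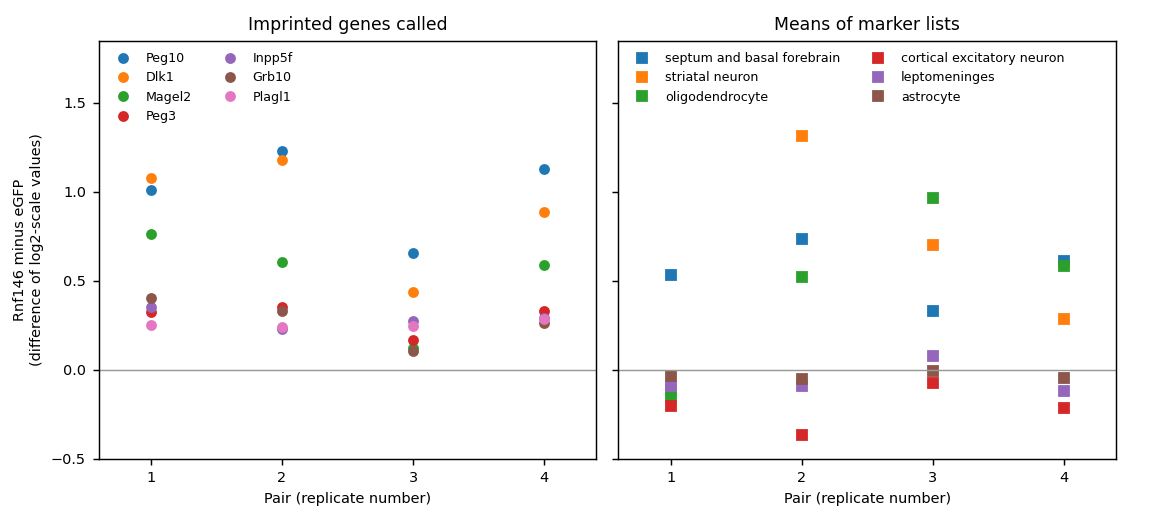
Pair differences (Rnf146 minus eGFP, log2-scale values) of the 7 imprinted genes called (left) and means of 6 marker lists (right), by replicate number. *Peg10*, *Dlk1* and *Peg3* lie highest in pair 2 and lowest in pair 3, as the mean of the septal and basal forebrain list does. The other called genes have another order. The means of the striatal and oligodendrocyte lists lie below 0 in pair 1.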

How the data were processed

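Stranded mRNA libraries of dissected PFC were available from 8 mice, 4 per virus. Per the study's methods and the submitters' processing notes, reads were trimmed with Cutadapt and quantified with Salmon 1.9.0 against GENCODE vM30 (GRCm39), and the notes also name DESeq2. The deposited values are log2 values, although the table is named for normalized counts; the transformation and the centring within pairs are not given in the sources used here. Read depth is unknown, and with it the counting error of a value. The 8 columns carry group and replicate number in their names, by which they were assigned. Nothing says whether same-numbered mice shared a litter, cage or day; the pairing comes from the labels and from the centring, which fixes the correlation of same-numbered libraries.

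All 15039 genes entered one linear model in limma (version 3.58.1, under R 4.3.3; eBayes with trend, two-sided, Benjamini-Hochberg adjustment over all genes, threshold 0.1) with the replicate number as a block, because the centred values leave 3 residual degrees of freedom and not 6. The fit was tested on simulated data, where the share of false calls ran somewhat above the threshold with the block and far above it without. No filter on low values was applied. Gene coordinates were taken from GENCODE vM39 (GRCm39), and promoter sequences those of RefSeq on GRCm38.p6. Python 3.11.15 was used for the other steps. The alternatives were no block, no variance trend, quantile normalization, leaving out genes with a mean value below 8.99, an adjusted p of 0.05, other class assignments and each pair left out in turn.

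The imprinted genes, their classes, the marker lists and the tests were chosen with earlier results of these data known. Every imprinted gene with values is named. Genes of the further imprinted list and of the imprint maintenance list are named where they were called, or where all 4 pairs shared a sign and the mean difference was at least 0.2 in size, and host or overlapping genes beside the gene they overlap. *Pde10a* is in the further imprinted list and the striatal list, and *Dcn* in the further imprinted list and the leptomeningeal list.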

Additional observations from a re-analysis of the deposited data

Results flagged for a closer look

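In 3 of the 40 genes examined for it, 1 pair lay far from the other 3 (the gap to the nearest value divided by the whole range exceeded Dixon's critical value for 4 values), and chance gives about 1 in 20. *Peg3* had a ratio of 0.846, with 0.16 in pair 3 and 0.32 to 0.35 in the others. *Nnat* had 0.893, with -0.18 in pair 3 against 0.23 to 0.27. *Zdbf2* had 0.830, with 0.46 in pair 1 against 0.10 to 0.16. Of the 36 imprinted genes, 19 had their lowest difference in pair 3. The matching count over all genes was not taken, so nothing is read from this number.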

How the results depend on the processing

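The replicate block set the number of calls. Without the replicate block and its pairing, 3226 genes and 16 imprinted genes were called, against 188 and 7 with it, and the 16 include all 7. At an adjusted p of 0.05 the counts were 80 and 3. Leaving out each pair in turn gave 14 to 421 genes and 1 to 7 imprinted genes, the fewest without pair 4 and, for all genes, the most without pair 1. Without pair 2 the counts were 42 and 2. Quantile normalization, the fit without a variance trend and the fit without genes of a mean value below 8.99 called the same 7 imprinted genes. The class medians and their gap moved by less than 1 SD under each alternative run, but the small maternal median of 0.02 was 0.06 without pair 3, 0.04 without pair 4 and 0.03 with the brain classes. For single genes 323 values moved by less than 1 SD and 1 by more, that of *Meg3* under quantile normalization, -0.07. Most of the 323 could not have moved further, so their number says little about robustness. The fits without the block, without a variance trend and without genes below 8.99 keep each difference as it is. Leaving out 1 of 4 pairs cannot move a mean by as much as 1 SD. Only quantile normalization could have moved a value by more. The cause of these shifts was not tested.

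The values hold 4 pair differences per gene, no read counts and no allele. A scale with such a floor can understate the change of weakly expressed genes. The amount cannot be given without counts and the transformation used.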
